A study of Mus musculus with 6 samples.

Results

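The NF-κB subunits and their inhibitors were described in peripheral invariant natural killer T (iNKT) cells of the mouse. The 10 genes are taken by symbol, with no threshold on a measured value, and every one was found once among the 27998 genes of the count tables. They comprised the genes of the 5 NF-κB subunits (Nfkb1, Nfkb2, Rel, Relb and Rela), 3 genes of the IκB family that hold back or steer the dimers (Nfkbia, Nfkbid and Nfkbiz), the IκB-like cofactor Bcl3, and Tnfaip3, which encodes the ubiquitin-editing enzyme A20. All 10 passed the filter on low counts. In GRCm38 they lie on 7 chromosomes, with Nfkb2 (chr19:46304320-46312385) and Rela (chr19:5637483-5648130) on 1 and Relb (chr7:19606217-19629438), Bcl3 (chr7:19808462-19822770) and Nfkbid (chr7:30421732-30428746) on another, and all are protein-coding.

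iNKT cells carry a nearly invariant T-cell receptor that sees lipids on CD1d, and their subsets are named iNKT1, iNKT2 and iNKT17 after the cytokines they make. The study took these cells from the liver, the spleen and the lymph node of wild-type C57BL/6 mice aged 5 weeks, with no treatment, to ask how the cells differ between organs. In each organ CD8+ and B220+ cells were removed and TCRβ+ CD1d-tetramer+ cells were sorted, and 2 libraries per organ were made with droplet-based 3′ counting. The methods call the libraries biological repeats. Whether several mice were pooled for a library is not given in the sources used here, and the labels name the molecule as nuclear RNA although whole cells were sorted.

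In resting lymphocytes, NF-κB dimers are held in the cytoplasm by IκBα, the product of Nfkbia. Signals from antigen, cytokine and TNF-family receptors lead to the breakdown of IκBα, and the freed dimers enter the nucleus and switch on genes that include those of their own inhibitors, Nfkbia and Tnfaip3. A second route processes the Nfkb2 precursor and releases dimers with RelB. In iNKT cells NF-κB signalling is known for its part in thymic development and survival.

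After cells with fewer than 300 or more than 4000 genes, or over 15% mitochondrial counts, had been left out, 16532 of 16587 barcodes remained, between 2638 and 2861 per library. Total counts of unique molecular identifiers (UMIs) per library ran from 4768016 to 11086603, and the median UMI count of a cell was 3592 and 2880 for liver replicates 1 and 2, against 1724 and 1554 for those of the spleen and 1730.5 and 1470 for those of the lymph node. With UMIs scaled to a library total of 1000000 (CPM), T-cell marker genes summed to between 5241 and 6364 in every library. The hepatocyte list stayed between 1.68 and 4.39 and the B-cell list between 2.52 and 17.2. Only 4 of 6 listed T-cell genes and 5 of 7 listed B-cell genes were in the count tables. The B-cell sum lacks Ighm and Ighd. The myeloid list reached 119.8 in lymph node replicate 2 and at most 28.2 elsewhere. The 5 endothelial genes summed to between 10.01 and 15.8 in lymph node and at most 1.40 in the other libraries, but all of the lymph node UMIs were of Stab2, and Cdh5, Kdr, Clec4g and Ptprb were at 0 there. The part of these UMIs in the lymph node differences was not tested. Both lymph node libraries held UMIs of Y-linked genes and no UMI of Xist, and the other 4 libraries the reverse, and the labels give no sex, so organ and this difference cannot be told apart in any comparison with the lymph node. Library pairs shared between 6 and 20 cell barcodes, and leaving out all cells with a shared barcode changed no call of a member.

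Promoters of members that were called different between organs come first, since several of these genes are known to be switched on by NF-κB itself. RefSeq start-site windows (GRCm38.p6, 250 bases before to 50 bases after the start) were at hand for 7 of the 10 members, in 12 windows; Nfkb1, Relb and Nfkbiz had none. The 10-base NF-κB consensus, known as the κB site, was searched on both strands, overlapping matches included. It was found in 8 of the 12 windows and in 6 of the 7 members, beside 4.50% of all 32817 windows of the same length and 5.13% of the 26994 genes with a window. The 250 bases before the start are shown for the 3 members with a window that were higher in the lymph node (Nfkbia, Nfkbid and Tnfaip3) and for the 2 that were higher in the liver (Rela and Bcl3), 5′ to 3′ on the gene's strand, with κB matches in capitals.

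Nfkbia (chr12:55492648-55492897, minus strand): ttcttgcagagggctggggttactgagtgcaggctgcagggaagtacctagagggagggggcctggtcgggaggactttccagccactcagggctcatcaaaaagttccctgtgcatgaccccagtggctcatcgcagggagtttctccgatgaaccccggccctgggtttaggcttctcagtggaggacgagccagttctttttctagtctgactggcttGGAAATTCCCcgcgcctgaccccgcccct
Nfkbid (chr7:30422156-30422405, plus strand): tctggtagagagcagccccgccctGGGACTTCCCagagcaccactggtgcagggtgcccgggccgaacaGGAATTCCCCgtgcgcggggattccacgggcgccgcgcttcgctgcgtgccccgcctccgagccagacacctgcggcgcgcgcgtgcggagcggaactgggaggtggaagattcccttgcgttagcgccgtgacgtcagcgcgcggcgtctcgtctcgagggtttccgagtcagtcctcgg
Tnfaip3 (chr10:19015411-19015660, minus strand): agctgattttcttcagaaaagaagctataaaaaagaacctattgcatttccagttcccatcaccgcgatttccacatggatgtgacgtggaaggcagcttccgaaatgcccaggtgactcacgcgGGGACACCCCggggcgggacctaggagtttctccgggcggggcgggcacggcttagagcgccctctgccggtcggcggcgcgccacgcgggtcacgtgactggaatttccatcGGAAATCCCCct
Rela (chr19:5637291-5637540, plus strand): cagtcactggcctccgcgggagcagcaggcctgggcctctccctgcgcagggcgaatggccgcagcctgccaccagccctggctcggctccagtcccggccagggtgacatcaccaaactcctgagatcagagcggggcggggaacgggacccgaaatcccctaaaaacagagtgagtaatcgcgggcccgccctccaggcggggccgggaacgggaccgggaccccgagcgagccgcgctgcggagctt
Bcl3 (chr7:19822756-19823005, minus strand): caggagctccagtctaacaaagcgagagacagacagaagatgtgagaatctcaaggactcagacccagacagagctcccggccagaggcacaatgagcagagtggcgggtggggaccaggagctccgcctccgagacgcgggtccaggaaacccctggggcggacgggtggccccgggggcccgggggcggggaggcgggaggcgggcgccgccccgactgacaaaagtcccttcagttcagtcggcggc

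In Nfkbia the κB match began 29 bases before the start. In Nfkbid the matches of the window shown began 226 and 181 bases before the start, and the other 2 windows of this gene held none. In Tnfaip3 they began 125 and 12 bases before the start, and the other window of the gene held none. The Rela stretch held no match, which says only that these letters are not in it, and the Bcl3 match lay 3 bases past the start, outside the stretch shown. Of the members whose level was not called different between organs over all cells, Rel had 2 overlapping matches, the first 92 bases before its start. Each of the 3 Nfkb2 windows had at least 1 match. The Nfkb2 windows beginning at 46305445 and 46305680 overlap and share the match GGGACTTTCC. It was counted in each, here and among the 8 windows with a match. The AP-1 motif TGANTCA, searched on both strands as well, was found in 2 of the 12 windows, 136 bases before the Tnfaip3 start and 210 bases before 1 of the Nfkb2 starts, and in 7.81% of all windows. A match is a description of the letters and not a measured binding site.

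The level of a gene in a library is given as its UMIs summed over all cells, per 1000000 UMIs of that library (CPM), with ribosomal, rRNA and haemoglobin genes left out of the total. Each UMI stands for 1 captured 3′ end, so these levels are not scaled by gene length. In such sums, fewer cells that express a gene and less RNA of it per cell cannot be told apart. The 10 genes together reached 863 and 901 CPM in liver, 871 and 758 CPM in spleen, and 1651 and 1468 CPM in lymph node. Nfkbia alone made up 44.8% ± 1.4 (SD, n = 2) of these UMIs in the liver, 55.0% ± 1.1 (SD, n = 2) in the spleen and 60.9% ± 0.036 (SD, n = 2) in the lymph node. Without Nfkbia and Tnfaip3, the sums of the other 8 genes were 456 and 459 CPM in the liver, 356 and 322 CPM in the spleen, and 481 and 430 CPM in the lymph node, so that the liver and the lymph node overlapped and the spleen lay below both.

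**Figure D1:**
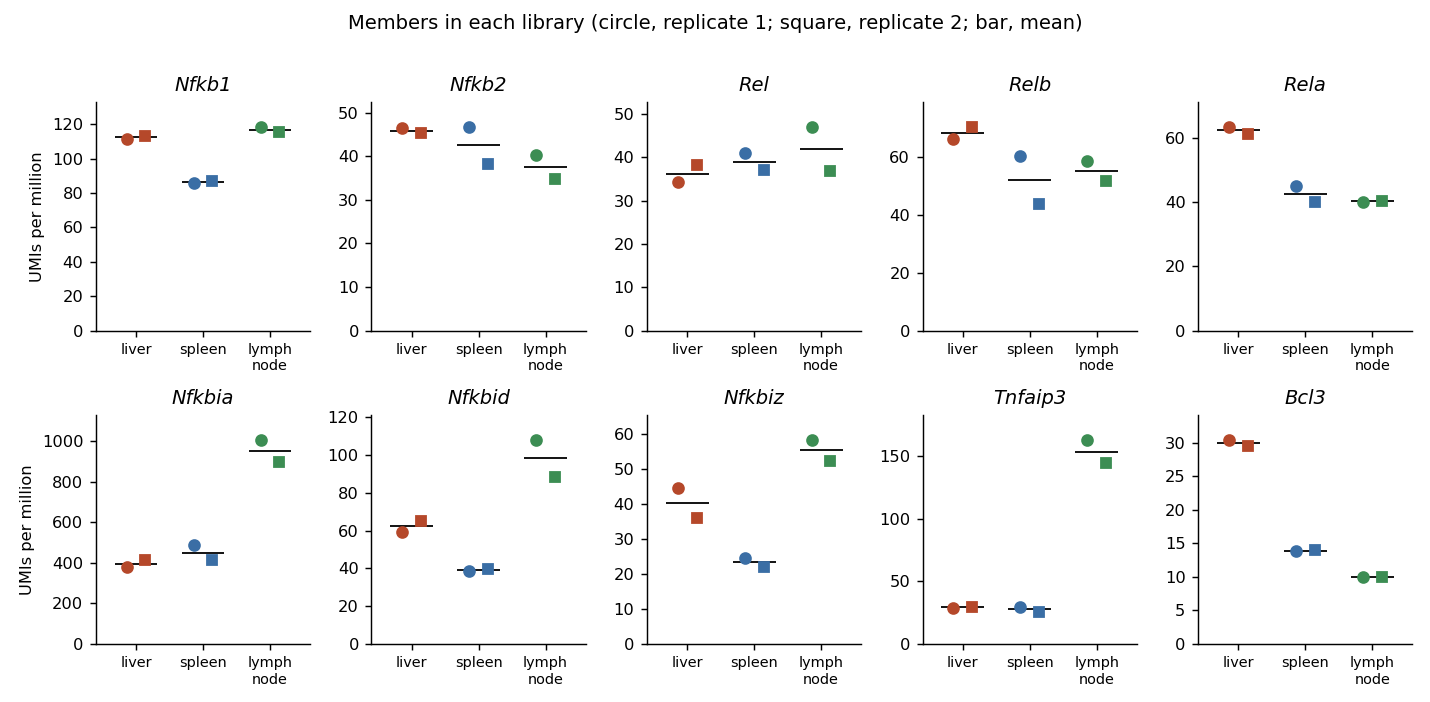
Summed level of each of the 10 genes in CPM, by organ; circles are replicate 1, squares replicate 2, and the bar is the mean of the 2 libraries. Nfkbia, Nfkbid, Nfkbiz and Tnfaip3 were highest in both lymph node libraries, and Rela and Bcl3 in both liver libraries.

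Differences between organs were tested on the summed counts of all 6 libraries with edgeR's quasi-likelihood test, and p-values were adjusted over the 10173 genes tested by the Benjamini-Hochberg method. In the liver against the spleen 4 of the 10 members were called at an adjusted p below 0.05, all higher in the liver, beside 25.7% of all genes tested (12.7% higher and 13% lower). In the liver against the lymph node 6 of 10 were called, 2 higher and 4 lower in the liver, beside 37.6% of all genes (18% higher and 19.6% lower). In the spleen against the lymph node 5 of 10 were called, all lower in the spleen, beside 18.3% of all genes (7.98% higher and 10.3% lower). The CPM of the 2 organs did not overlap for 6, 9 and 6 of the 10 members in the 3 comparisons, beside 63.3%, 70.2% and 57.5% of all genes. The median log2 fold change of the members was 0.31, -0.19 and -0.25 in the 3 comparisons, beside 0.02, 0.01 and 0.00466 over all genes tested. These comparisons share libraries, so their results are not independent of each other.

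The subunits differed less between organs than did several of the inhibitors, and Nfkb2, Rel and Relb were called in no comparison. Nfkb1, which encodes the p105 precursor of p50, stood at 112 and 113 CPM in liver, at 86.2 and 87.3 CPM in spleen, and at 119 and 115 CPM in lymph node. The spleen libraries were the lowest, and the liver and lymph node levels lay close together without overlap. The level was lower in the spleen than in the lymph node, with a log2 fold change of -0.41 ± 0.12 (SE; edgeR adjusted p = 0.0161). This call was lost when spleen replicate 1 (adjusted p = 0.112), spleen replicate 2 (0.0576), lymph node replicate 1 (0.121) or lymph node replicate 2 (0.0665) was left out, and with DESeq2 (0.0639). The log2 fold change of liver over spleen, 0.30 ± 0.12 (SE, edgeR adjusted p = 0.0631), did not pass the test. It did pass with a replicate block (edgeR adjusted p = 0.0375), with library totals (0.0205) and with no filter on low counts (0.0455). No difference between liver and lymph node was called (-0.11 ± 0.12, edgeR adjusted p = 0.474).

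Rela encodes p65, the activating partner of p50 in the canonical dimer. Its level was 63.4 and 61.0 CPM in liver, 45.0 and 40.03 CPM in spleen and 40.03 and 40.4 CPM in lymph node. Both liver libraries were above the other 4, which overlapped. Rela was higher in the liver than in the lymph node by a log2 fold change of 0.57 ± 0.14 (SE; edgeR adjusted p = 0.0015) and higher than in the spleen by 0.47 ± 0.14 (SE; edgeR adjusted p = 0.0124). The second call was lost without liver replicate 1 (adjusted p = 0.0525), without spleen replicate 2 (0.117) and with DESeq2 (0.0847). Spleen and lymph node did not differ by the test (log2 fold change 0.10, 95% interval -0.21 to 0.41).

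Rel encodes c-Rel, the subunit tied most closely to antigen-receptor signalling in T cells. It stood at 34.2 and 38.1 CPM in liver, 40.9 and 37.0 CPM in spleen, and 47.1 and 36.8 CPM in lymph node, and the 3 organs overlapped. The widest of its 3 differences, liver over lymph node, had a log2 fold change of -0.27 with a 95% interval from -0.59 to 0.05. Relb, whose product acts mainly in the non-canonical dimer with p52, stood at 66.2 and 70.4 CPM in the liver, 60.1 and 43.7 CPM in the spleen, and 58.4 and 51.7 CPM in the lymph node. Both liver libraries were the highest, the spleen libraries lay apart from each other, and the log2 fold change of liver over spleen, 0.32 ± 0.14 (SE), did not pass the edgeR test (adjusted p = 0.103). Without spleen replicate 1 it did pass, at 0.55 (adjusted p = 0.0242). Nfkb2, the gene of the p100 precursor of p52, stood at 46.4 and 45.4 CPM in the liver, 46.9 and 38.4 CPM in the spleen, and 40.3 and 34.8 CPM in the lymph node, with log2 fold changes of 0.03, 0.23 and 0.20 in the 3 comparisons. None of these passed the test, and the 95% interval of liver over lymph node ran from -0.08 to 0.54.

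Nfkbia, the gene of IκBα, had the highest UMI count of the 10 in each of the 6 libraries and its level was higher in the lymph node than in either other organ. It was 378 and 413 CPM in liver, 486 and 411 CPM in spleen, and 1006 and 894 CPM in lymph node. Liver and spleen overlapped, and both lymph node libraries lay far above them. The log2 fold change was -1.32 ± 0.12 (SE; edgeR adjusted p = 1.4e-10) for liver over lymph node, that is 2.49-fold higher in the lymph node, and -1.06 ± 0.12 (SE; edgeR adjusted p = 3.43e-08) for spleen over lymph node, that is 2.09-fold higher in the lymph node. Between liver and spleen the value of -0.25 ± 0.12 (SE) did not pass (edgeR adjusted p = 0.122), but when every cell had been thinned to 1000 UMIs before summing it was -0.40 and passed (adjusted p = 0.0233).

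Tnfaip3, whose product A20 takes ubiquitin chains off signalling proteins upstream of the IκB kinase, showed the widest difference of the 10 genes in the comparisons with the lymph node. It stood at 28.7 and 29.4 CPM in liver, 29.7 and 25.2 CPM in spleen, and 163 and 144 CPM in lymph node. Liver and spleen were level with each other, and both lymph node libraries were far above them. The log2 fold change was -2.46 ± 0.14 (SE; edgeR adjusted p = 4.48e-16) for liver over lymph node (5.50-fold higher in the lymph node) and -2.46 ± 0.15 (SE; edgeR adjusted p = 5.2e-15) for spleen over lymph node (5.52-fold). By adjusted p, Tnfaip3 ranked 35 and 23 of 10173 genes in these comparisons. Between liver and spleen the log2 fold change was 0.0034, with a 95% interval from -0.32 to 0.33.

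Nfkbid and Nfkbiz encode the nuclear proteins IκBNS and IκBζ, which act on NF-κB at chromatin. Nfkbid stood at 59.2 and 65.3 CPM in liver, 38.5 and 39.8 CPM in spleen, and 108 and 88.5 CPM in lymph node. The 3 organs did not overlap, and the order was spleen, liver, lymph node. All 3 differences passed the edgeR test, with a log2 fold change of 0.59 ± 0.15 (SE; adjusted p = 0.00317) for liver over spleen, -0.72 ± 0.13 (SE; adjusted p = 6.63e-05) for liver over lymph node and -1.31 ± 0.15 (SE; adjusted p = 2.26e-08) for spleen over lymph node.

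Nfkbiz had the same order at lower levels, with 44.7 and 36.0 CPM in liver, 24.5 and 22.1 CPM in spleen, and 58.4 and 52.3 CPM in lymph node. Again no organ overlapped another. The log2 fold change was 0.72 ± 0.16 (SE; edgeR adjusted p = 0.00166) for liver over spleen, -0.51 ± 0.15 (SE; edgeR adjusted p = 0.00644) for liver over lymph node and -1.23 ± 0.17 (SE; edgeR adjusted p = 1.04e-06) for spleen over lymph node. The call of liver over lymph node was lost without liver replicate 2 (adjusted p = 0.0782), without lymph node replicate 1 (0.104) and when cells were thinned to 1000 UMIs (0.0659).

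Bcl3, whose product joins p50 or p52 homodimers in the nucleus, ran the other way. Its level was 30.4 and 29.5 CPM in liver, 13.8 and 14 CPM in spleen, and 10.01 and 9.96 CPM in lymph node. The organs did not overlap, and the liver was the highest, with fitted folds of 2.04 over the spleen and 2.89 over the lymph node. Bcl3 was higher in the liver by a log2 fold change of 1.03 ± 0.20 (SE; edgeR adjusted p = 0.000239) over the spleen and 1.53 ± 0.21 (SE; edgeR adjusted p = 4.77e-07) over the lymph node. With cells thinned to 1000 UMIs the first of these was 0.59 and no longer passed (adjusted p = 0.125). The difference of spleen over lymph node, 0.50 ± 0.24 (SE), did not pass (edgeR adjusted p = 0.164), and the lymph node values rest on 37 and 36 UMIs.

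**Figure D2:**
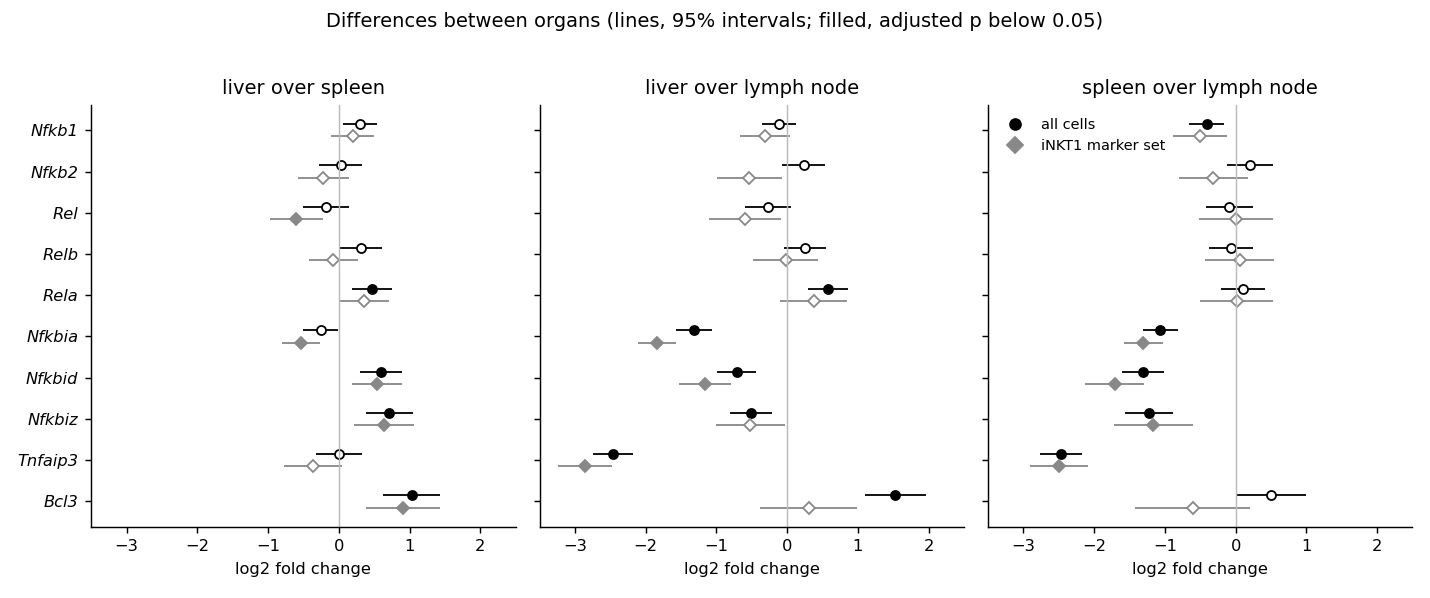
log2 fold change of each member in the 3 comparisons between organs, with 95% intervals, for all cells (circles) and for cells of the iNKT1 marker set (diamonds); filled symbols have an adjusted p below 0.05. The points of Nfkbia, Nfkbid, Nfkbiz and Tnfaip3 lie left of 0 in both comparisons with the lymph node, and Bcl3 lies right of 0 in the liver comparisons.

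The organs hold different mixtures of iNKT cells, so the members were also compared within cells sharing a marker set. A cell belonged to the iNKT1 set when it had UMIs of at least 2 of 9 iNKT1 genes (among them Tbx21, Il2rb and Klrb1c) after thinning to 1000 UMIs, and not 2 genes of the iNKT17, recent emigrant, interferon or cycling lists. A list of 7 iNKT2 genes played no part in this choice. That list summed to 964 to 1012 CPM in the liver libraries, 1165 to 1243 CPM in the spleen and 1652 to 1696 CPM in the lymph node. Its part in the differences of the members was not tested. Such a set is a range of cells and not a cell type. In the lymph node libraries, 252 of 494 and 216 of 421 iNKT1 cells held just the 2 iNKT1 genes needed. In the liver these were 759 of 1847 and 681 of 1932, and in the spleen 639 of 1442 and 596 of 1305. Whether choosing cells by these genes favoured cells with more UMIs of the members, and more so in some organs, was not tested. The iNKT1 set held 66.8% ± 1.3 (SD, n = 2) of the liver cells, 54.1% ± 2.3 (SD, n = 2) of the spleen cells and 19.3% ± 2.1 (SD, n = 2) of the lymph node cells. The iNKT17 set held 1.84% ± 0.48, 0.808% ± 0.061 and 21.6% ± 2.7 (SD, n = 2 each). Cells of no set made up 23.9% ± 3.6, 37.2% ± 1.8 and 51.4% ± 0.0095 (SD, n = 2 each).

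Within the iNKT1 set, 5 of the 10 members were called in the liver against the spleen (beside 18.9% of the 8858 genes tested), 3 in the liver against the lymph node (15.4%) and 4 in the spleen against the lymph node (5.29%). Nfkbia stood at 379 and 378 CPM in liver, 567 and 467 CPM in spleen, and 1394 and 1119 CPM in lymph node of this set. The 3 organs no longer overlapped. Its log2 fold change was -0.53 ± 0.13 (SE; edgeR adjusted p = 0.00325) for liver over spleen, -1.84 ± 0.14 (SE; edgeR adjusted p = 5.17e-15) for liver over lymph node and -1.31 ± 0.14 (SE; edgeR adjusted p = 5.31e-10) for spleen over lymph node. The first of these was lost without spleen replicate 1, at -0.41 (adjusted p = 0.105).

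Tnfaip3 in the iNKT1 set stood at 28.8 and 28.5 CPM in the liver, 33.1 and 36.5 CPM in the spleen, and 224 and 156 CPM in the lymph node. Both lymph node libraries were again far above the other 4, with log2 fold changes of -2.85 ± 0.19 (SE; edgeR adjusted p = 1.32e-16) for liver and -2.49 ± 0.20 (SE; edgeR adjusted p = 3.75e-13) for spleen over lymph node. Nfkbid kept its order of spleen, liver and lymph node, at a mean of 41.4 ± 1.6, 63.9 ± 5.4 and 132 ± 17 CPM (SD, n = 2 each). Its log2 fold change of spleen over lymph node was -1.71 ± 0.21 (SE; edgeR adjusted p = 2.42e-08). Its call of liver over spleen, 0.54 ± 0.18 (SE; edgeR adjusted p = 0.0245), was lost without liver replicate 2 (0.141), spleen replicate 1 (0.173) or spleen replicate 2 (0.0788), and when 3 markers were needed (0.139).

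Rel, called in no comparison of all cells, was called in this set between liver and spleen. It was lower in the liver iNKT1 cells, at 32.4 and 35.3 CPM against 50.1 and 46.5 CPM in the spleen, with a log2 fold change of -0.60 ± 0.19 (SE; edgeR adjusted p = 0.0182). The call was lost without liver replicate 1 (adjusted p = 0.149), spleen replicate 1 (0.117) or spleen replicate 2 (0.0689), and when 1 marker was enough (0.104). With 1 marker enough, Rel was instead called lower in the liver than in the lymph node (adjusted p = 0.0106), as it was over all cells outside the 4 other marker sets (0.0193). Nfkbiz was higher in the liver than in the spleen by 0.64 ± 0.21 (SE; edgeR adjusted p = 0.0249), a call lost without liver replicate 1 (0.129) or spleen replicate 2 (0.332) and with 3 markers needed (0.23). It was lower in the spleen than in the lymph node by a log2 fold change of -1.16 ± 0.28 (SE; edgeR adjusted p = 0.00534), lost without spleen replicate 2 (0.0619), lymph node replicate 1 (0.0545) or lymph node replicate 2 (0.0566) and with 3 markers needed (0.552).

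Bcl3 was higher in liver than in spleen iNKT1 cells by 0.91 ± 0.26 (SE; edgeR adjusted p = 0.00985), a call lost without spleen replicate 1 (0.129) and with 3 markers needed (0.0582). Against the lymph node its log2 fold change was 0.30 with a 95% interval from -0.39 to 0.99, on 20 lymph node UMIs, where all cells gave 1.53. With 1 marker enough it was 0.82 and was called (adjusted p = 0.0198). Rela, called between liver and the other organs in all cells, was not called within the iNKT1 set, with log2 fold changes of 0.36 (adjusted p = 0.139) over the spleen and 0.38 (adjusted p = 0.297) over the lymph node. With 1 marker enough, Rela was called higher in the liver than in the spleen at 0.42 (adjusted p = 0.0409). Nfkb1 in the spleen against the lymph node and Nfkbiz in the liver against the lymph node likewise lost their all-cell calls in this set. Their log2 fold changes were no smaller here, at -0.51 and -0.52 (edgeR adjusted p = 0.123 and 0.147), beside -0.41 and -0.51 in all cells. Both calls were made with 1 marker enough (-0.55 and -0.63, edgeR adjusted p = 0.00928 and 0.00684). Whether the organ difference of a member differs between this set and all cells was not tested.

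Among the lymph node cells the sets differed in the level of several members. Nfkbia stood at 1256 ± 195 CPM in the iNKT1 set, 1147 ± 38 CPM in the interferon set and 571 ± 42 CPM in the iNKT17 set (SD, n = 2 each), and in the cells of no set at 979 ± 62 CPM. In both lymph node libraries the iNKT17 set was the lowest of the 4. Tnfaip3 stood at 190 ± 48 CPM in the iNKT1 set and 128 ± 1.1 CPM in the iNKT17 set, with the interferon set spanning both (63.7 and 226 CPM in the 2 libraries), the cells of no set at 150 ± 8.3 CPM and the cycling set lower, at 78.6 ± 20.1 CPM on 19 UMIs. Nfkbid stood at 132 ± 17 CPM in the iNKT1 set and 68.2 ± 10.4 CPM in the iNKT17 set. Relb and Nfkb2 were also low in lymph node iNKT17 cells, at 30.6 ± 1.2 and 21.5 ± 2.1 CPM, beside 60.5 ± 25.0 and 60.0 ± 18.2 CPM in the iNKT1 set, while Nfkb2 in the interferon set stood at 18.8 ± 0.81 CPM on 5 UMIs. Nfkb1 was nearly level in the iNKT17 and iNKT1 sets, at 107 ± 6.7 and 119 ± 14 CPM. No test was run between sets, because the sets of a library share their source. In the liver, where the iNKT17 set held 104 cells, Nfkbia likewise stood lower in it (239 ± 22 CPM, 55 UMIs) than in the iNKT1 set (378 ± 1.1 CPM). Of these liver cells, however, 41 of 42 and 59 of 62 held just the 2 iNKT17 genes needed, and their median number of iNKT1 genes was also 2, so that they lie at the edge of the set. In the spleen the iNKT17 set, at 455 ± 38 CPM on 29 UMIs, overlapped the iNKT1 set (517 ± 71 CPM) across libraries and was the lower of the 2 sets within each.

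**Figure D3:**
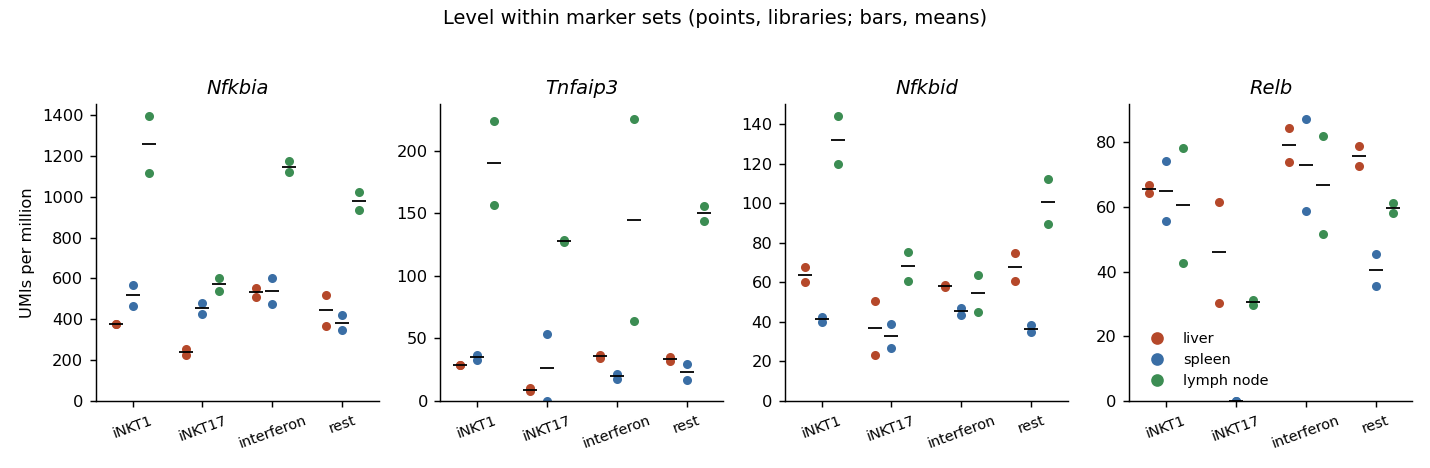
Level of Nfkbia, Tnfaip3, Nfkbid and Relb in CPM within 4 groups of cells (iNKT1, iNKT17 and interferon marker sets, and cells of no set), coloured by organ; points are libraries and bars are means. The lymph node libraries are the highest for Nfkbia and Tnfaip3 within each of the 4 groups, and the spleen iNKT17 points rest on 41 cells.

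Across single cells, the share of cells with at least 1 UMI of a gene was compared after each cell had been thinned to 1000 UMIs, because the liver cells held more UMIs each. Between 82.9% and 100% of a library's cells had enough UMIs. Nfkbia was seen in 17.7% and 19.6% of the liver cells, 25.8% and 23.1% of the spleen cells, and 44.7% and 43.3% of the lymph node cells. The exact 95% intervals were 16.3% to 19.2% in liver replicate 1 and 42.7% to 46.7% in lymph node replicate 1, and these intervals cover counting error only. Without thinning the means were 41.7% in the liver, 36.5% in the spleen and 59.0% in the lymph node, so that the order of liver and spleen turned with the thinning and no order of these 2 organs was read from it.

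Tnfaip3 was seen in 2.36% and 2.17% of the thinned liver cells, 2.01% and 1.53% of the spleen cells, and 10.6% and 9.58% of the lymph node cells. Nfkbid was seen in 3.68% and 4.45%, 3.06% and 2.65%, and 7.63% and 6.31% in the same order. In both genes the lymph node intervals lay above those of the other organs. Without thinning, Tnfaip3 was still seen most often in the lymph node (means of 5.94%, 3.62% and 16.4% in the same order), but for Nfkbid the means were 11.8%, 5.03% and 11.03%, and no order of liver and lymph node was read from its share. Nfkb1 was seen in a mean of 7.20%, 5.91% and 8.92% of the thinned cells (21.3%, 10.9% and 13.9% without thinning, where the liver came first), and the other subunits in means of 2.53% to 4.79%. The sorted cells are of 1 kind, so no cells that should lack these genes were at hand as a measure of free RNA, but any UMI of the 5 hepatocyte genes was seen in 0.226% to 1.07% of the unthinned cells of a library.

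**Figure D4:**
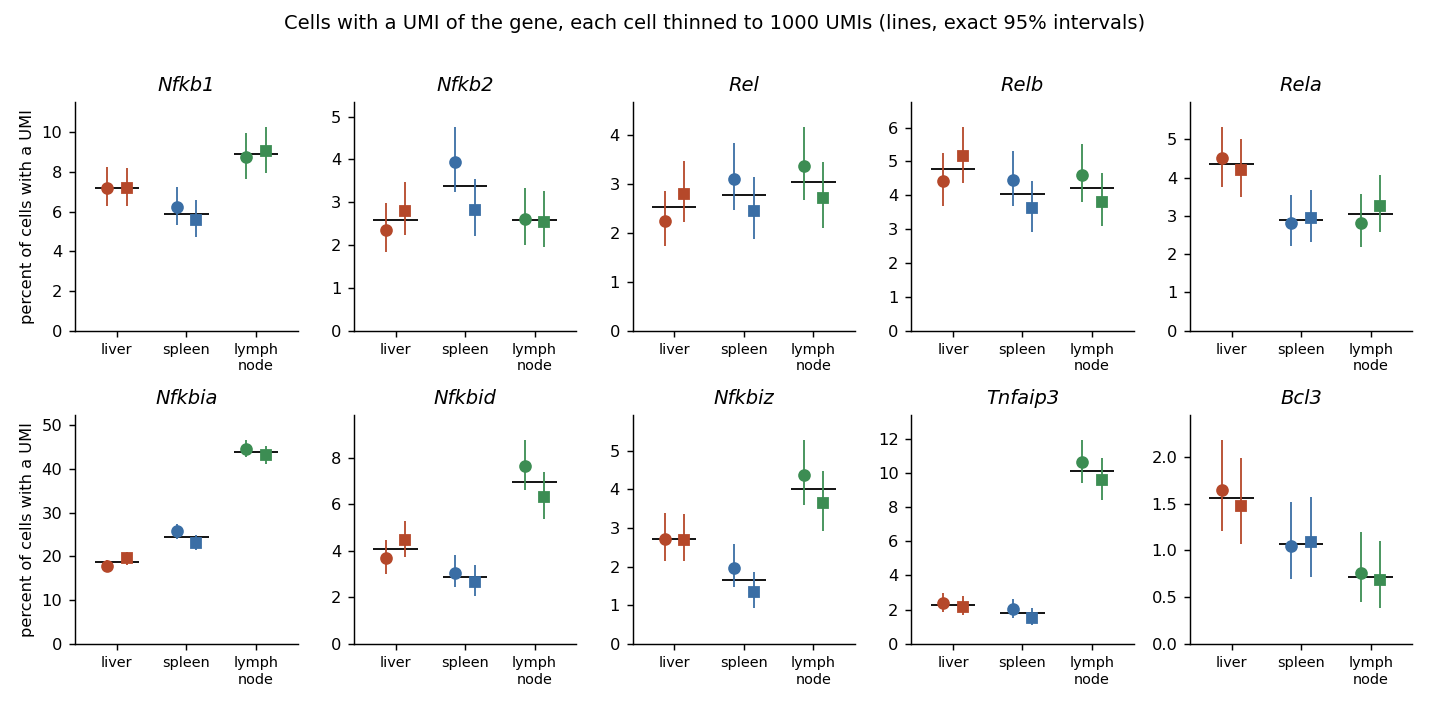
Percent of cells with at least 1 UMI of each gene after thinning to 1000 UMIs per cell, by library (circles, replicate 1; squares, replicate 2), with exact 95% binomial intervals and the mean as a bar. For Nfkbia, Nfkbid and Tnfaip3 both lymph node intervals lie above the intervals of the other organs.

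Few cells held UMIs of many members at once. With thinned cells, UMIs of 3 or more of the 10 genes were seen in 1.75% and 2.31% of the liver cells, 1.24% and 1.17% of the spleen cells, and 4.72% and 4.75% of the lymph node cells. No UMI of any member was seen in 62.8% and 60.6% of the liver cells, 56.3% and 61.1% of the spleen cells, and 38.0% and 40.6% of the lymph node cells. The lymph node libraries had the most cells with several members and the fewest with none. Without thinning the cells with 3 or more members made up 19.0% and 15.8% of the liver, 5.50% and 4.48% of the spleen, and 14.5% and 11.4% of the lymph node cells, which puts the liver, with the most UMIs per cell, first.

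Pairs of members rose and fell together in single cells only weakly. The Pearson correlation of log(1 + UMI) across the cells of a library, over the 45 pairs, had a median of 0.0278 in the liver, 0.00699 in the spleen and 0.017 in the lymph node. The cells of a library share its depth and its chemistry, and correlations this low in sparse counts are given as a description. The pair of Nfkbia and Tnfaip3 had the highest correlation in both lymph node libraries, at 0.126 and 0.141. In the other organs it came first in replicate 2 alone, at 0.0616 and 0.184 in the 2 liver libraries and at 0.0312 and 0.0971 in the 2 spleen libraries. In liver replicate 1 Relb with Nfkbia was the highest, at 0.0991, and in spleen replicate 1 Rel with Nfkbiz, at 0.0519. In the lymph node 14.2% and 13.6% of the cells with Nfkbia had a UMI of Tnfaip3, beside 7.69% and 6.50% of the cells without it, and in the liver it was 4.02% and 6.45% beside 2.00% and 1.13%. The share with Tnfaip3 was thus higher among cells with Nfkbia in each of these 4 libraries, as it was in both spleen libraries (2.40% and 2.96% beside 1.88% and 1.10%).

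By the mean of both libraries Relb and Nfkbia came next in the liver, where 35.5% and 29.3% of the cells with Relb had a UMI of Nfkbia, beside 16.9% and 19.0% of those without. In the lymph node the second pair was Nfkbia and Nfkbid, with 9.43% and 8.23% of the cells with Nfkbia holding Nfkbid, beside 6.17% and 4.85% of those without. Among the 10 pairs of 2 subunits the mean correlation stayed between -0.0151 and 0.0454 in the 3 organs. Against the summed UMIs of the other 9 genes, Nfkbia had r between 0.141 and 0.171 in the liver, 0.0516 and 0.062 in the spleen, and 0.152 and 0.177 in the lymph node, and Rela stayed between -0.0244 and 0.0406 in all 6 libraries.

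**Figure D5:**
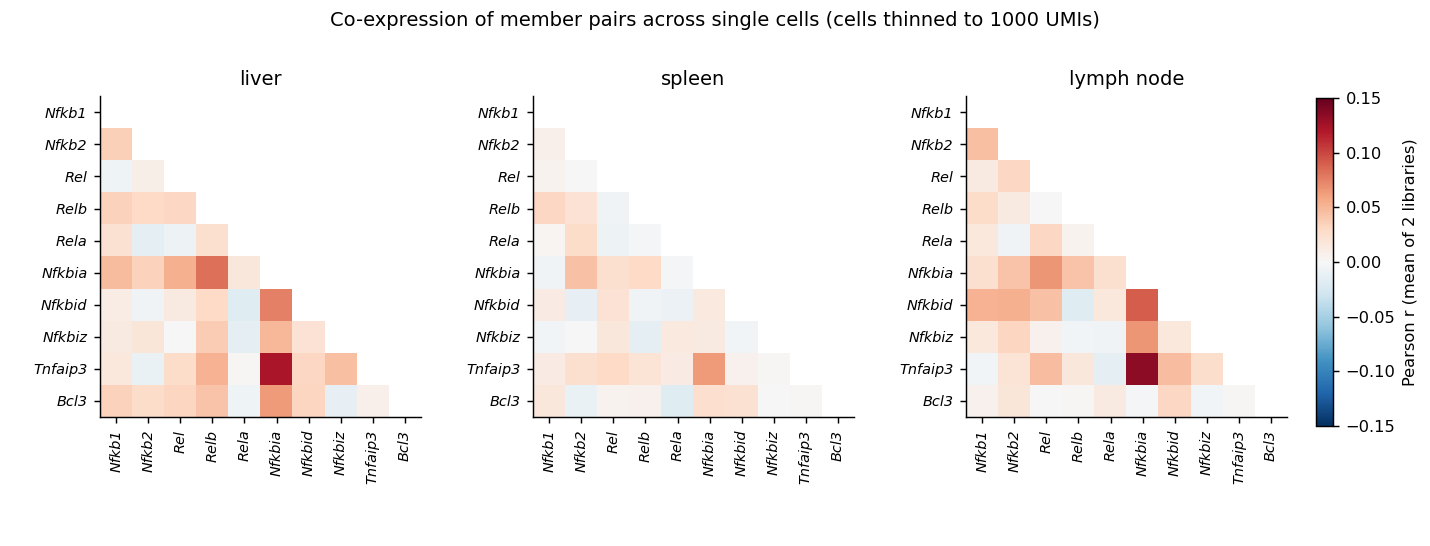
Pearson correlation of log(1 + UMI) for each pair of members across single cells thinned to 1000 UMIs, shown per organ as the mean of 2 libraries on a colour scale from -0.15 to 0.15. The darkest square in each organ is Nfkbia with Tnfaip3, which in the liver and the spleen comes from replicate 2, and most other squares are near 0.

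Of 5312 other genes seen in at least 2% of the cells of an organ, those most correlated with the summed UMIs of the members across liver cells were Icam1 (0.153), Ifng (0.14), Ltb (0.136), Tagap (0.127) and Gadd45b (0.115), followed by Marcksl1, Rgs1, Cd69, Nr4a1 and Cd82. Across spleen cells they were Ltb (0.165), Icam1 (0.106), Cd69 (0.0961), Junb (0.093) and Xcl1 (0.0853), followed by Btg1, Irf1, Cd52, Asb2 and Kdm2b. Across lymph node cells they were Junb (0.229), Btg1 (0.167), Ier2 (0.166), Dusp1 (0.166) and Gadd45b (0.156), followed by Xcl1, Dusp2, Phlda1, Bcl2a1b and AW112010. The median over all 5312 genes lay between -0.00159 and 0.000302 in the 3 organs. The lists of 10 genes held 23 different genes, of which 7 stood in more than 1 organ's list and 0 in all 3. These values describe cells of the same libraries, and several of the named genes (Icam1, Ltb, Gadd45b, Junb, Ier2 and Dusp1 among them) are on the pathway lists given next.

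The wider pathway was read from lists of its other genes, drawn up with earlier results of these data known. Of 23 genes of the IκB kinase complex and the signalling proteins before it, 6 were higher and 2 lower in the liver than in the spleen, 9 higher and 1 lower in the liver than in the lymph node, and 4 higher and 1 lower in the spleen than in the lymph node, beside the 25.7%, 37.6% and 18.3% of all genes called in these comparisons. Traf1, an adaptor of TNF receptors, was higher in the liver (125 and 106 CPM) than in the spleen (70.03 and 53.2 CPM) and the lymph node (47.1 and 36.8 CPM), with a log2 fold change of 1.40 over the lymph node. Birc2, which encodes the ubiquitin ligase cIAP1, was lower in the liver (62.1 and 55.8 CPM) than in the lymph node (128 and 119 CPM), with a log2 fold change of -1.12. Of 14 tested genes of other inhibitors, 1 was higher and 3 lower, 1 higher and 4 lower, and 0 higher and 4 lower in the same 3 comparisons. Among them Otulin, a deubiquitinase of linear chains, was the one called in all 3 comparisons among the genes named by the rule, at -0.43, -0.95 and -0.51, rising from liver to spleen to lymph node.

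Of 11 tested receptors, 2 were higher and 3 lower in the liver than in the spleen, 2 higher and 4 lower in the liver than in the lymph node, and 3 higher and 4 lower in the spleen than in the lymph node, beside 25.7%, 37.6% and 18.3% of all genes called in either direction. Tnfrsf1a, the gene of TNF receptor 1, was higher in the liver (76.6 and 61.2 CPM) than in the spleen (32.3 and 23.2 CPM) and the lymph node (14.9 and 19.1 CPM). Il18r1, a chain of the IL-18 receptor, ran the other way, with 118 and 138, 198 and 187, and 416 and 487 CPM, and a log2 fold change of liver over lymph node of -1.87. Of 9 tested ligands, 4 were higher and 3 lower, 2 higher and 5 lower, and 1 higher and 5 lower in the same order, beside those same shares of all genes. Tnfsf14 was higher in the liver and Lta and Tnfsf11 were higher in the lymph node, with log2 fold changes of liver over lymph node of 1.26, -1.39 and -1.36. Tnf was lower in the spleen than in the lymph node by -0.71 (edgeR adjusted p = 0.0091).

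Of 17 tested genes known as targets of NF-κB, 7 were higher and 0 lower in the liver than in the spleen, 8 higher and 7 lower in the liver than in the lymph node, and 2 higher and 4 lower in the spleen than in the lymph node, beside the same 25.7%, 37.6% and 18.3% of all genes. Cxcl10, Irf8 and Il2ra were higher in the liver than in the spleen, with log2 fold changes of 2.47, 2.17 and 1.67. Gadd45b, a stress-induced gene, stood at 34.2 and 40.9 CPM in the liver, 14.1 and 12.0 CPM in the spleen, and 158 and 122 CPM in the lymph node, with a log2 fold change of spleen over lymph node of -3.40. Its order of organs was that of Nfkbid and Nfkbiz.

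A list of 14 immediate early and heat shock genes, which cells switch on soon after stimulation, moved with the lymph node values of Nfkbia, Nfkbid, Nfkbiz and Tnfaip3. Of these genes 13 were lower in the liver than in the lymph node and 14 lower in the spleen than in the lymph node (beside 19.6% and 10.3% of all genes), with a median log2 fold change of -1.93 and -2.79. Their summed level was 1731 and 1887 CPM in liver, 2637 and 2219 CPM in spleen, and 9147 and 9957 CPM in lymph node. Fos stood at 13.02 and 8.41 CPM in the liver and at 559 and 584 CPM in the lymph node. Their part in the differences of the members was not tested.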

How the data were processed

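Single-cell libraries were prepared with the 10x Genomics 3′ v2 chemistry from iNKT cells of 3 organs, 2 libraries each. The values are UMI counts per gene and cell, which the authors made with Cell Ranger 3.1.0 (submitters' processing notes) on mm10, and deposited without normalization. From there, cells were kept at 300 to 4000 genes and at most 15% mitochondrial UMIs. The library sums left out 190 ribosomal protein, rRNA and haemoglobin genes (24.0% to 35.0% of the UMIs). Cells were thinned with these genes still included. UMIs were summed per library and tested with edgeR 4.0.16 (filterByExpr, TMM, robust quasi-likelihood fit over the 6 libraries, called at an adjusted p below 0.05), checked on simulated counts, with DESeq2 1.42.0 as an alternative. In simulated counts of liver over spleen (10029 genes), 85 of 100 genes changed by a log2 fold change of 1 were called. Of 100 genes changed by 0.5, 21 were called. Both sets of changes were in the same run, which gave 7 false calls in all. The run gave all genes the same dispersion and changed a smaller part of them than was called in the data. This limits what it says of these data. Log2 fold changes carry edgeR's SE. Cell-level shares and correlations used cells thinned at random to 1000 UMIs (Python 3.11.15, seed 1). Doublets were not removed; Scrublet (scanpy) called too few cells to be of use, and leaving out the 2% highest scores was an alternative. Loci are from a GENCODE annotation of GRCm38, and promoters RefSeq GRCm38.p6. All 10 members were named in each comparison; of the other lists, at most 3 called genes with a mean of at least 20 CPM and the widest log2 fold change were named per comparison, and 10 genes per organ were named by their correlation with the members. Members, lists and tests were chosen with earlier results of these data known. With 2 libraries per organ, p-values measure the spread between these libraries. Beyond the methods, the Xist and Y-linked UMIs set the lymph node libraries apart from those of the liver and the spleen. Nothing further says how far the 2 libraries of an organ, or those of the liver and the spleen, were separate.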

Additional observations from a re-analysis of the deposited data

How the results depend on the processing

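The 15 calls of members in all cells were recomputed under 20 alternatives each, and 11 of them held under every one; of the 12 calls in the iNKT1 set, 6 held under every one of 9. The number of genes called in the liver against the spleen fell from 2614 to 1427 with DESeq2 and to 1683 with cells thinned to 1000 UMIs, and that of the spleen against the lymph node from 1864 to 1123 with DESeq2. Leaving out 1 library gave 1369 to 2410 genes (liver over spleen), 2409 to 4031 (liver over lymph node) and 1025 to 1930 (spleen over lymph node), and 3 to 5, 5 to 6 and 4 to 5 members. In the iNKT1 set the same gave 767 to 1805, 748 to 1460 and 289 to 501 genes, and 1 to 5, 3 to 3 and 3 to 4 members. With 1 marker needed, 2470 genes and 6 members were called in the liver against the lymph node and 979 genes in the spleen against the lymph node. With 3 markers needed these gene counts were 808 and 282 of 7700 tested. In the liver against the spleen 2 members were then called, beside 5 with 2 markers needed. The share of all genes called there with 3 markers is not given, so nothing about the members is read from this count.

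Changes of sign concerned members with no call. In all cells, Nfkb2 in the liver against the spleen turned to -0.38 with thinned cells and ran from -0.085 to 0.16 when a library was left out. Tnfaip3 in the same comparison was -0.0070 with RLE factors, -0.0059 with DESeq2, -0.012 with all barcodes, -0.0031 with libraries thinned to 1 total, -0.045 without the 4 other marker sets and -0.087 to 0.11 when a library was left out. In the spleen against the lymph node, Rel ran from -0.27 to 0.11 and Relb from -0.29 to 0.13 when a library was left out, and Relb was 0.0054 with thinned cells. In the iNKT1 set with 1 marker needed, Relb was 0.089 in the liver against the spleen, and Rel, Relb and Rela were -0.25, -0.13 and -0.039 in the spleen against the lymph node, where Rela was -0.28 with 3 markers needed. Leaving out a library there gave Relb -0.24 to 0.13 (liver over spleen), -0.37 to 0.53 (liver over lymph node) and -0.29 to 0.60 (spleen over lymph node), and in the last comparison Nfkb2 -0.58 to 0.071, Rel -0.22 to 0.32 and Rela -0.20 to 0.23. The cause of these changes was not tested.

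The share of cells with UMIs of 3 or more members moved with the thinning. It was 17.4% in the liver, 4.99% in the spleen and 13.0% in the lymph node without thinning, 4.12%, 2.65% and 8.03% with cells thinned to 1500 UMIs, and 1.77%, 1.30% and 4.67% with another random seed, beside 2.03%, 1.20% and 4.73%.

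Replicate numbers appear in the labels of every organ, but whether they pair the libraries is not given in the sources used here. Deviations from the organ means correlated at 0.0753, 0.0834 and 0.0629 between same-numbered libraries. These values are low but all positive, and they do not settle a pairing. With the replicate block 3034, 4141 and 2113 genes and 5, 6 and 5 members were called in the 3 comparisons of all cells, where the added call was Nfkb1 in the liver against the spleen (adjusted p = 0.0375), a call also made with library totals (0.0205) and with no filter on low counts (0.0455).

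Depth limits the small members most. Bcl3 rests on 36 to 215 UMIs per library and in the spleen Nfkbiz rests on 94 and 79 and Tnfaip3 on 114 and 90. The libraries number 2 per organ, the lymph node differs from the other organs also in its Xist and Y-linked UMIs, and leaving out a library from an organ leaves 1, which is then assumed to vary like the others.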
